A study of Mus musculus with 8 samples.

Results

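The genes described here carry membrane proteins to the apical surface of epithelial cells. They are 10 Rab GTPases, Rab effectors, a motor and adaptor subunits, namely Rab25, Rab17, Rab27a, Rab27b, Rab11fip1, Myo5b, Ap1m1, Ap1m2, Sytl1 and Sytl2. They were chosen by name for their role in polarized sorting, and all 10 are among the 24346 genes listed for each library. Genes above 0 in at least 1 library numbered 18862 and were tested, and the 10 were among them.

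Adipose-derived stem cells (ADSCs) are stromal cells isolated from fat that can be grown as a layer on plastic (2D) or within a gel (3D). Total RNA was sequenced from 8 primary cultures of wild-type BALB/c mice, which were 12-week-old males whose gonadal fat was digested with collagenase. The 2D group holds the libraries of mice 2, 3, 4 and 5 and the 3D group, grown in the basement membrane gel Matrigel, those of mice 1, 4, 5 and 7, so that n = 4 per group and both kinds of library came from mice 4 and 5. Both groups share genotype, strain and tissue, and neither received a treatment that the labels name. As models, both are primary cultures of a tissue digest for which no sorting step is given, and the passage and the medium of the sequenced cultures are not given in the sources used here, so that gel, medium and passage cannot be told apart. The description of the 3D library of mouse 1 ends in a number where all others end in the culture type, and whether this number is a passage is not stated. No culture was repeated from the same mouse and group, and p-values therefore measure the spread between these libraries.

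Levels are fragments scaled by transcript length and library size (FPKM), quantile normalized so that all libraries share the same distribution, and FPKM below stands for these normalized values unless they are called deposited. The depth, estimated from the steps between low values, had a median of 17.9 M fragments (M for mega) in 2D, with a range of 17.5 to 18.5 M, and of 16 M in 3D, with a range of 15.5 to 16.6 M. A transcript of 2 kb at 1 FPKM corresponds to about 27.1 fragments in the library of lowest depth. Changes are differences in log2(FPKM + 1) between 3D and 2D, a scale that understates the change of genes with low levels. They are written as the estimate ± its standard error, and were tested with limma, with p-values adjusted over the 18862 genes by the Benjamini-Hochberg method. A gene is called higher or lower when this adjusted p is below 0.05.

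Epithelial cells keep an apical and a basolateral membrane apart by sorting cargo into separate carriers. Rab GTPases mark these carriers and recruit effectors, among them motors of the myosin V class and tethering proteins of the synaptotagmin-like family, while the clathrin adaptor AP-1 selects cargo by the mu1 subunit it contains. Several of these proteins exist as a widely expressed form and an epithelial form, and stromal cells of fat are not known for the epithelial forms.

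The labels call the cells mesenchymal stem cells, and 8 marker lists were set against that name. The 14 epithelial markers summed to 37.4, 184, 699.8 and 36.4 FPKM in 2D (mice 2, 3, 4 and 5) and to 2756, 3166, 3229 and 2949 in 3D (mice 1, 4, 5 and 7). The sum was lower in each 2D library than in each 3D library, and within 2D it was highest in mouse 4, in which Krt8 and Krt18 reached 261 and 256 FPKM. Of the 14 markers, 13 were higher in 3D by limma's adjusted p, beside 21.2% of all tested genes. The exception was Krt18 (limma's adjusted p = 0.0519, range over the alternatives 2.44e-04 to 0.371). When a library was left out 11 to 14 were higher, and without the 2D libraries of mice 3 and 4 all 14 were. The most abundant in 3D was Krt8, at a mean of 576 FPKM. The adhesion molecule Epcam was between 0 and 0.0504 FPKM in 2D and between 265 and 494 in 3D.

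The 11 stromal markers went the other way, and all 11 were lower in 3D by limma's adjusted p, beside 20.3% of all tested genes. Their sum was 3129, 2116, 2098 and 4529 FPKM in 2D and 8.71, 4.78, 5.44 and 8.15 in 3D. Col1a2 was the most abundant in 2D, at a mean of 1256 FPKM, and Twist1 in 3D, at 6.05. Pdgfrb and Dcn were listed at 0 in every 3D library. Of 6 surface markers of mesenchymal stem cells, Thy1, Eng and Itgb1 were lower and Ly6a was higher in 3D. Nt5e was between 0.790 and 60.6 FPKM in 2D and between 0.0626 and 0.350 in 3D. It was not called (limma's adjusted p = 0.0680, range over the alternatives 0.0163 to 0.341). Thy1 was between 66.5 and 279 FPKM in 2D and between 0 and 0.0554 in 3D. The 6 summed to between 993 and 1539.9 FPKM in 2D, mostly Itgb1 at a mean of 856. In 3D they summed to 401, 1718, 2809 and 3359 FPKM (mice 1, 4, 5 and 7). These sums were mostly Ly6a in mice 4, 5 and 7 and mostly Itgb1, at 249 FPKM, in mouse 1. The mean of Ly6a over the 3D libraries was 1769. Ly6a stood at 58.6 FPKM in the 3D library of mouse 1, inside the 2D range of 24 to 165, and its call (limma's adjusted p = 0.0432, range over the alternatives 9.26e-04 to 0.156) was lost on the values as deposited, without the intensity trend, without a filter on low values, under a block for each mouse, without the 2D libraries of mice 3 and 4, without the 2D library of mouse 2, 3 or 5 and without the 3D library of mouse 4, 5 or 7. Cd44 had a mean of 111 FPKM in 2D and 90.4 FPKM in 3D and was not called (limma's adjusted p = 0.362), but was called lower on the values as deposited (0.0314, range over the alternatives 0.0314 to 0.954). Itgb1 was still at a mean of 212 FPKM in 3D. Of the 11 stromal markers, Twist1 was between 4.59 and 7.99 FPKM in 3D and the others were at most 1.55 in the cultures labelled 3D mesenchymal stem cells. These libraries are called the 3D libraries in what follows.

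Mesothelial markers set 2 libraries of the 2D group apart. The 8 listed markers summed to 857 and 2157 FPKM for mice 3 and 4 in 2D, against 2.33 and 0.569 for mice 2 and 5 in 2D and 2.57, 34.0, 5.84 and 6.24 in 3D. Msln was the most abundant in both groups, and in limma 0 of the 8 had an adjusted p below 0.05 and 0 an unadjusted p below 0.05. Without the 2D libraries of mice 3 and 4, 1 was called higher, without the 2D library of mouse 5, 2 were called lower, and with a pseudocount of 0.1, 1 was. Several results that rest on the 2D libraries of mice 3 and 4 are given with and without them. Leaving them out was chosen after the data were seen, and it raises the change by construction for genes that are high in them. Of 13 epididymal markers, included because gonadal fat of males adjoins the epididymis, Lcn5, Lcn9, Lcn10 and Adam7 were listed at 0 in every library, and Pax2 and Pax8, which the epididymis shares with other duct epithelia, were higher in 3D. Their sum was between 0.334 and 1.01 FPKM in 2D and between 39.5 and 51.2 in 3D, mostly Pax8 at a mean of 36.5. For Ros1 all 3D libraries lay above all 2D libraries, with about 103 fragments against 3. It was not called (limma's adjusted p = 0.131, range over the alternatives 0.0446 to 0.355). Crisp1, not called, was at 3.59 FPKM (about 76 fragments) for mouse 1 in 3D and at most 0.394 elsewhere. Rnase10 was between 0.272 and 0.943 FPKM in 2D, and in 3D at 0.530 for mouse 1 and 0 otherwise. It was not called (limma's adjusted p = 0.0962, range over the alternatives 0.0222 to 0.310). The 5 endothelial markers summed to between 0.412 and 6.74 FPKM in 2D and to at most 0.202 in 3D, and limma called 0 of them over all libraries, with an unadjusted p below 0.05 for 1. It called 3 of them lower without the 2D libraries of mice 3 and 4, 2 without the 2D library of mouse 5 or with a pseudocount of 0.1, and 1 without the 2D library of mouse 4 or without genes under 300 nt. Of 7 leukocyte markers, Cd3e and Cpa3 were listed at 0 in every library, Ptprc was at most 0.0779 FPKM, and Cd68 was higher in 3D, where the list summed to between 6.25 and 42.3. Csf1r was between 0.486 and 1.44 FPKM in 2D and at 0.264, 5.97, 7.65 and 3.40 in 3D (mice 1, 4, 5 and 7). It was not called (limma's adjusted p = 0.129, range over the alternatives 0.00272 to 0.269). Without the 3D library of mouse 1, 2 leukocyte markers were called higher. Of 4 melanocyte markers, Dct and Mlana were listed at 0 in every library, the sum was at most 0.721 FPKM, and limma called 0, with 0 at an unadjusted p below 0.05. On the values as deposited Tyr was called higher (limma's adjusted p = 0.0221, range over the alternatives 0.0221 to 0.743).

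**Figure D1:**
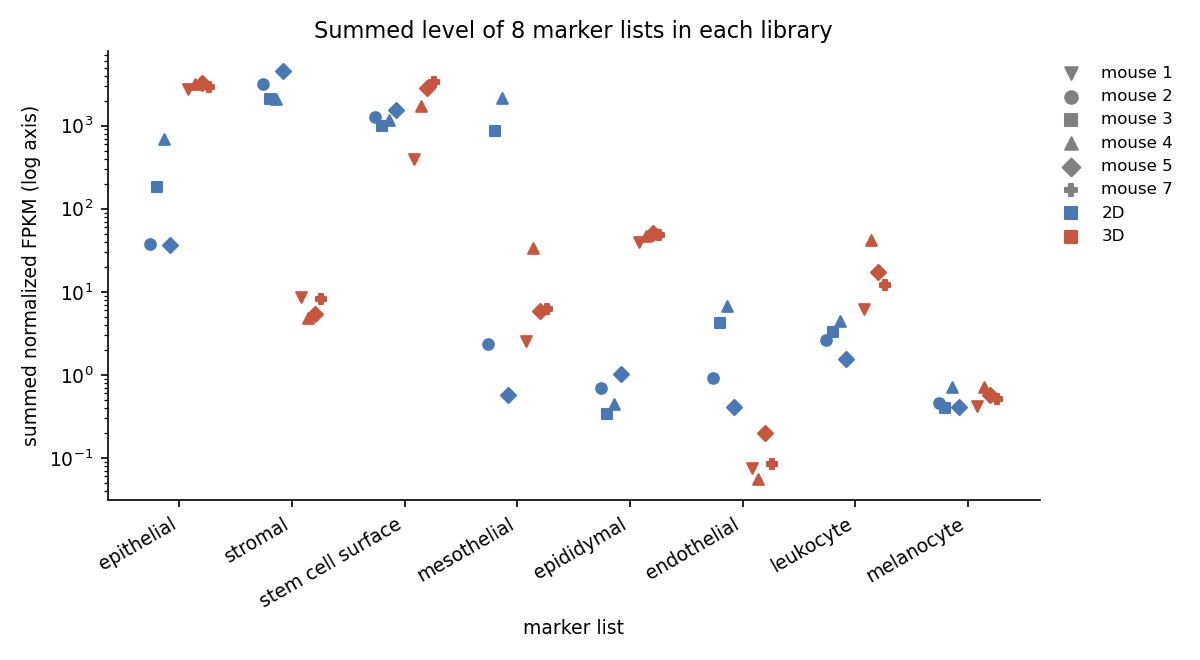
Summed normalized FPKM (log axis) of 8 marker lists, with 1 point per library, 2D in blue and 3D in red and the mouse given by the symbol. Epithelial sums are between 36.4 and 699.8 in 2D and at least 2756 in 3D, stromal sums are at most 8.71 in 3D, and the mesothelial sums of the 2D libraries of mice 3 and 4 stand above the rest of that list.

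Of the 10 trafficking genes, 4 were higher in 3D by limma's adjusted p, beside 21.2% of all tested genes, and 0 were lower, beside 20.3%. At an unadjusted p below 0.05 in limma, 5 were higher and 0 lower, beside 49.1% of all genes in either direction. The groups did not overlap, with 3D above, in 5 of the 10, beside 21.6% of all genes, and with 3D below in 0 of the 10, beside 20.9%. The 4 were Rab25, Ap1m2, Myo5b and Rab11fip1, and the fifth gene without overlap was Rab17, by the scaling of equal fragment counts (below). The median log2 fold change was 0.76 over the 10 genes and 0.00 over all tested genes. In these bulk cultures, fewer cells of a type and less RNA per cell cannot be told apart. Epithelial markers rose and stromal markers fell between the same libraries, with the sums given above, and their part in these results was not tested.

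Because mice 4 and 5 gave both cultures, a fit with a block for each mouse was also run, in which the comparison rests on the 4 libraries of these mice and on 1 residual degree of freedom. With limma's adjusted p, 0 of the 10 genes passed under the block, and 4 had an unadjusted p below 0.05, beside 0 of all tested genes by adjusted p and 27.7% at an unadjusted p below 0.05. The smallest adjusted p among the 10 was then 0.111, which Rab25, Ap1m2 and Myo5b shared, and that of Rab11fip1 was 0.144. Without the 2D libraries of mice 3 and 4, 5 of the 10 were called higher and 0 lower, beside 19.3% and 22.8% of all genes tested in that fit. The added gene was Sytl1, for which the libraries left out were the highest of the 2D group, so its call follows from that choice.

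**Figure D2:**
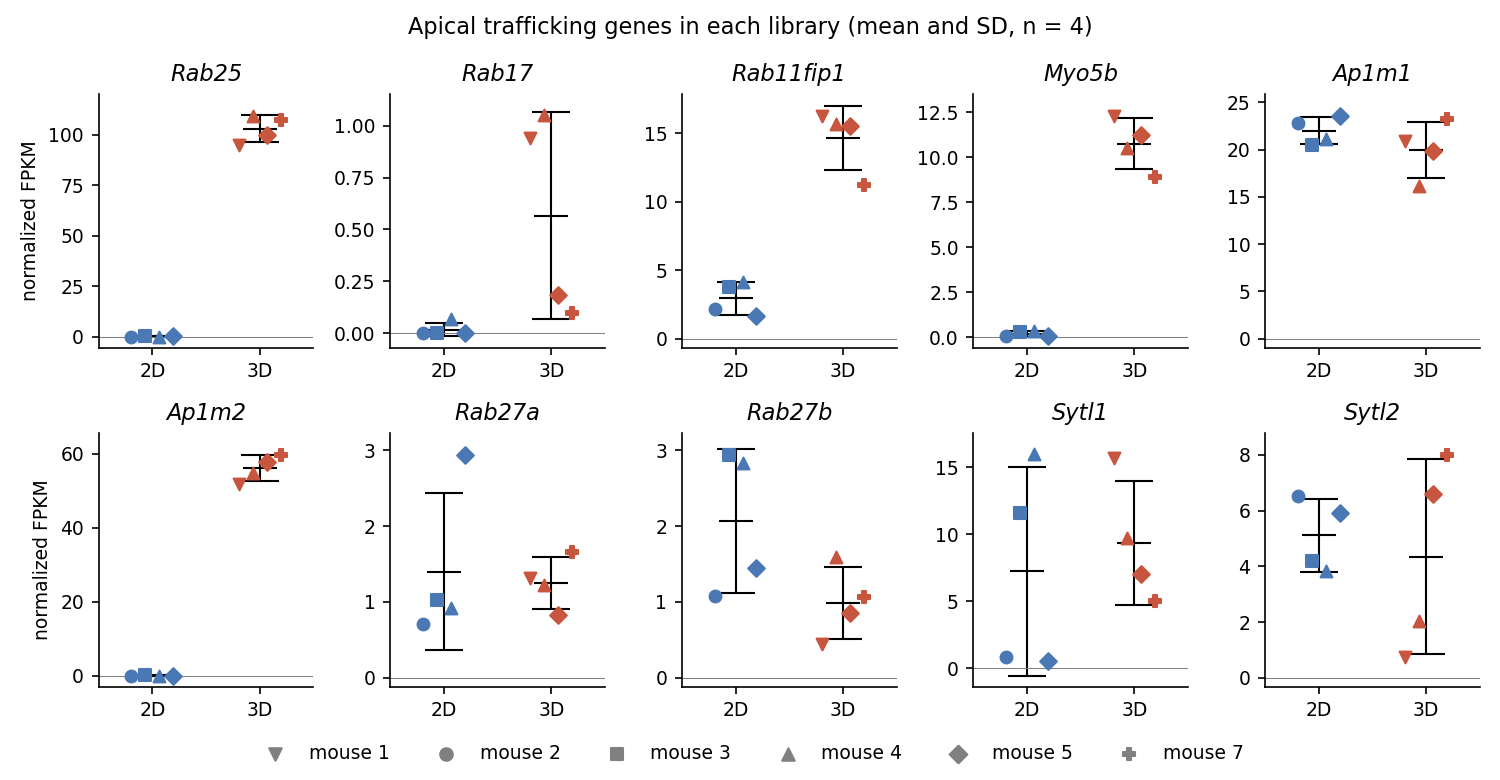
Quantile-normalized FPKM of the 10 trafficking genes in each library, with 1 panel per gene, 2D in blue, 3D in red, the mouse given by the symbol, and bars for the mean and SD (n = 4). Rab25, Ap1m2, Myo5b and Rab11fip1 show separate groups, while Ap1m1, Rab27a, Rab27b, Sytl1 and Sytl2 overlap between the cultures.

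Rab25 and Rab17 are the epithelial Rab GTPases of the apical recycling endosome. Rab25, a member of the Rab11 subfamily, was at 0, 0.306, 0 and 0.216 FPKM in 2D (mice 2, 3, 4 and 5) and at 95.1, 109.6, 99.9 and 107 in the 3D libraries of mice 1, 4, 5 and 7. All 3D libraries were high and close to each other, all 2D libraries were at or near 0, and the groups did not overlap. The 2D values correspond to about 4 fragments in mouse 3 and 2 in mouse 5, so that the fold change rests on the 2D count. Over the groups, 6 fragments in 2D against 4391 in 3D give a ratio of 821 after correction for depth, with an exact 95% counting interval of 377 to 2238 that covers counting error only. The estimated change was 6.53 ± 0.12 (limma, adjusted p = 4.70e-08), and it was 6.79 within mouse 4 and 6.38 within mouse 5.

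Rab17 was lower in level than Rab25 in every 3D library. It was listed at 0 in the 2D libraries of mice 2, 3 and 5 and at 0.0658 FPKM in mouse 4, or about 2 fragments, and at 0.939, 1.05, 0.184 and 0.0953 in the 3D libraries of mice 1, 4, 5 and 7. The 3D libraries of mice 1 and 4 were high, those of mice 5 and 7 came close to the 2D library of mouse 4, and the groups did not overlap. The 2D library of mouse 4 and the 3D library of mouse 7 held about 2 fragments each, so that this separation rests on the scaling of equal counts. The totals of 2 and 59 fragments give a ratio of 33.1, with an exact 95% counting interval of 8.76 to 279.6. Its log2 fold change of 0.57 had a standard error of 0.21 and did not pass (limma's adjusted p = 0.0639, range over the alternatives 0.0191 to 0.293). The log2 fold change of Rab17 passed without the 3D library of mouse 5 (0.0450) or of mouse 7 (0.0234) and with a pseudocount of 0.1 (0.0191).

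Ap1m1 and Ap1m2 encode the alternative mu1 subunits of AP-1, mu1A of all cells and mu1B of epithelial cells. Ap1m1 was at 22.8, 20.5, 21.1 and 23.6 FPKM in 2D (mice 2, 3, 4 and 5) and at 20.9, 16.1, 19.8 and 23.2 in 3D (mice 1, 4, 5 and 7). The groups overlapped, and the lowest value was that of the 3D library of mouse 4. The log2 fold change of Ap1m1 was -0.14, with a 95% interval of -0.41 to 0.13 from limma (adjusted p = 0.372). Ap1m2 was at 0, 0.0405, 0 and 0 FPKM in 2D and at 51.7, 54.8, 57.8 and 59.8 in 3D. The 2D library of mouse 3 held about 1 fragment, the other 2D libraries were listed at 0, and all 3D libraries were high. The counts of 1 and 4475 fragments give a ratio of 5019.9, with an exact 95% counting interval of 901 to 198318, and the estimated change was 5.82 ± 0.10 (limma, adjusted p = 3.46e-08). Within mouse 4 it was 5.80 and within mouse 5 it was 5.88.

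The promoters of Rab25 and Ap1m2 are shown because these genes had the largest changes among the 10 and were at or near 0 in 2D. Promoter sequences were those of RefSeq for GRCm38.p6, which is the assembly that the labels name as mm10, and span 250 bases before to 50 bases after the start site. Windows were examined for 5 of the 10 genes (Rab25, Rab17, Rab27a, Ap1m2 and Sytl1), matched by symbol. Windows of the other genes, among them Myo5b and Rab11fip1, were not examined. Their absence here does not mean that they lack a promoter entry or either motif. The windows were searched on both strands for the E-box CACCTG, the form bound by ZEB and SNAIL proteins, and for AACCNGTT, the form bound by grainyhead-like proteins. The motifs share no bases in these windows, and capitals mark the matches. The Rab25 window is at chr3:88548230-88548529 on the minus strand and the Ap1m2 window at chr9:21312284-21312583 on the minus strand, each ending inside an annotated transcript of its gene.
Rab25: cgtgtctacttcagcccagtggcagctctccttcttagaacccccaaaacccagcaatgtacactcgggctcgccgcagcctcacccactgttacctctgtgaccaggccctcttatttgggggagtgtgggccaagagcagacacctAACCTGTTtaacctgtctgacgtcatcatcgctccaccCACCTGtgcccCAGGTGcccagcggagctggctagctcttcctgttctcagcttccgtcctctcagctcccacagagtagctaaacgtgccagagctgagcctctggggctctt
Ap1m2: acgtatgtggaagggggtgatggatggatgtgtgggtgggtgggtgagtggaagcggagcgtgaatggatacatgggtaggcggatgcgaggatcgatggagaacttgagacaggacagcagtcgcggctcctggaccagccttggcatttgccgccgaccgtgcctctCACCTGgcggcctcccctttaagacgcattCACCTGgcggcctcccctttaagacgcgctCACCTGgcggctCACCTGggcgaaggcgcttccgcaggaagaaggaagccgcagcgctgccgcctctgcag

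The Rab25 window held 2 E-boxes and 1 match of the grainyhead-like motif. Of all 32851 promoter windows of this length, 20.2% held at least 1 E-box, 2.88% at least 2, and 2.09% at least 1 grainyhead-like motif. The Ap1m2 window held 4 E-boxes and 0 grainyhead-like motifs. Of all windows, 0.0548%, or 18, held 4 or more E-boxes. In the Ap1m2 window 2 of the E-boxes are followed by the same run of bases, a repeat, so the matches are not independent. Both windows were picked for the changes of their genes, so these percentages describe them and are not a test. The E-boxes of Ap1m2 lay within 81 bases before the start site, and those of Rab25 within 64. Rab17 and the upstream window of Rab27a held 1 E-box each, and the Sytl1 window held neither motif. Among the markers, the repressor genes Zeb1 and Zeb2 were between 11.9 and 23.0 FPKM in 2D and at most 0.0807 in 3D, and Grhl2 was at most 0.0273 in 2D and between 25.3 and 40.1 in 3D. The matches describe letters in these windows, and binding was not measured. Zeb1, Zeb2 and Grhl2 were named after their values were seen, and no SNAIL gene is among the markers. A part of these proteins in the changes of Rab25 and Ap1m2 was not tested.

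Rab11fip1 and Myo5b act with Rab11 proteins, Rab11fip1 as an effector on recycling endosomes and Myo5b as the motor that carries these endosomes along actin. Myo5b was at 0.0572, 0.270, 0.368 and 0.0722 FPKM in 2D (mice 2, 3, 4 and 5) and at 12.3, 10.5, 11.2 and 8.90 in 3D (mice 1, 4, 5 and 7). Within 2D the libraries of mice 3 and 4, with the mesothelial markers, were the higher pair, and all 3D libraries stood far above them. The estimated change was 3.30 ± 0.16 (limma, adjusted p = 4.76e-06), and the log2 fold change of Myo5b without these 2D libraries was 3.46. Within mouse 4 it was 3.08 and within mouse 5 it was 3.51.

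For Rab11fip1 the 2D libraries were at 2.16, 3.81, 4.13 and 1.65 FPKM and the 3D libraries at 16.3, 15.6, 15.5 and 11.2. Again mice 3 and 4 were the higher pair in 2D, the 3D library of mouse 7 was the lowest of its group, and the groups did not overlap. Its estimated change was 2.03 ± 0.25 (limma, adjusted p = 4.84e-04), and the log2 fold change of Rab11fip1 without the 2D libraries of mice 3 and 4 was 2.40. The change was 1.70 within mouse 4 and 2.64 within mouse 5. A gene on the opposite strand, 4933416M07Rik, overlaps Rab11fip1, and its deposited values were between 0.220 and 1.13 FPKM in 2D and between 3.36 and 5.23 in 3D. Likewise, 1700120E14Rik on the strand opposite to Myo5b was listed at 0 in 2D and between 0.496 and 0.780 FPKM in 3D. The libraries keep the strand, but whether the counting used it is not stated, so that reads of these pairs cannot be told apart and both values are uncertain to that extent.

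Rab27a and Rab27b, which dock secretory granules and lysosome-related organelles at the plasma membrane, were low in all libraries. Rab27a was at 0.708, 1.02, 0.924 and 2.94 FPKM in 2D and at 1.31, 1.22, 0.826 and 1.66 in 3D. The highest value was that of the 2D library of mouse 5, and the groups overlapped. Its log2 fold change was -0.02, with a 95% interval of -0.65 to 0.62 from limma (adjusted p = 0.962), and it changed sign on the values as deposited, at 0.24. Rab27b was at 1.08, 2.94, 2.83 and 1.44 FPKM in 2D and at 0.448, 1.59, 0.855 and 1.07 in 3D. The 2D libraries of mice 3 and 4 were the highest, and the 3D libraries overlapped the 2D libraries of mice 2 and 5. The log2 fold change of Rab27b was -0.60, with a 95% interval of -1.23 to 0.03 from limma (adjusted p = 0.115), and -0.21 without mice 3 and 4 in 2D (adjusted p = 0.531, range over the alternatives 0.0613 to 0.531).

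Sytl1 and Sytl2 encode synaptotagmin-like proteins, which tether Rab27 carriers to the membrane. Sytl1 was at 0.845, 11.5, 16 and 0.539 FPKM in 2D (mice 2, 3, 4 and 5) and at 15.7, 9.71, 7.00 and 5.05 in 3D (mice 1, 4, 5 and 7). In 2D the libraries of mice 3 and 4, those with high mesothelial markers, were at the level of the 3D libraries, and those of mice 2 and 5 were below all 3D libraries. The estimated change was 0.96 ± 0.85 (limma, adjusted p = 0.408), and 2.52 without the 2D libraries of mice 3 and 4 (adjusted p = 0.00549, range over the alternatives 0.00549 to 0.716). The libraries left out were the highest of the 2D group for Sytl1, so the larger change follows from that choice. Within mouse 4 the change was -0.66 and within mouse 5 it was 2.38. The part of the mesothelial markers in the Sytl1 values was not tested. Sytl2 was at 6.52, 4.19, 3.84 and 5.90 FPKM in 2D and at 0.745, 2.04, 6.61 and 8.01 in 3D. In 3D mice 1 and 4 were low and mice 5 and 7 high, on both sides of the 2D range. The log2 fold change of Sytl2 was -0.46, with a 95% interval of -1.68 to 0.76 from limma (adjusted p = 0.509), and depended on single libraries, at -0.020 without the 3D library of mouse 1 and -0.80 without that of mouse 7.

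**Figure D3:**
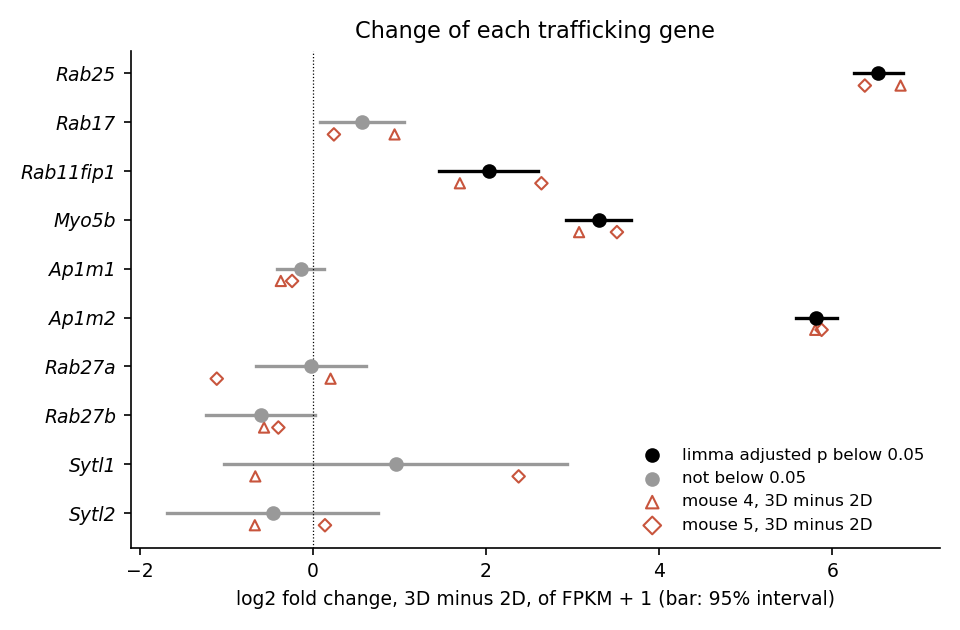
Log2 fold change of each gene (3D minus 2D, of FPKM + 1) with its 95% interval from limma, black where the adjusted p was below 0.05 and grey elsewhere, and in red the change within mouse 4 (triangle) and mouse 5 (diamond). The changes run from -0.60 for Rab27b to 6.53 for Rab25, and mice 4 and 5 differ in sign for Rab27a, Sytl1 and Sytl2.

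FPKM is a level per length, so that paralogues can be set side by side within a library. The share of a family held by its epithelial form was therefore computed for 6 families and compared by a two-sided exact permutation test over libraries, whose smallest p with 4 against 4 is 0.0286. That smallest p was reached for Ap1m2, Rab25, Myo5b and Rab11fip1, each with an exact p = 0.0286 and an adjusted p of 0.0429 over the 6 shares. These genes were already called higher, without overlap between the groups, so these p-values are not separate support for those calls. The families were chosen with earlier results known, and the test treats libraries from the same mouse as independent. The shares therefore serve to describe the size of the difference.

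Ap1m2 held 0%, 0.197%, 0% and 0% of the summed mu1 FPKM in 2D (mice 2, 3, 4 and 5) and 71.2%, 77.3%, 74.5% and 72.0% in the 3D libraries of mice 1, 4, 5 and 7. With Ap1m1 near its 2D level, the summed mu1 level was 22.0 ± 1.41 FPKM in 2D and 76.0 ± 5.42 FPKM in 3D (SD, n = 4). Rab25 held between 0% and 0.399% of the Rab11 subfamily in 2D and 54.8%, 58.1%, 54.8% and 58.5% in 3D. Rab25 was thus the most abundant of the 3 genes in each 3D library, and Rab11a in each 2D library. The sum of the subfamily was 70.1 ± 10.2 FPKM in 2D and 182 ± 6.16 FPKM in 3D (SD, n = 4). The widely expressed Rab11a was at 45.2, 55.3, 62.4 and 39.9 FPKM in 2D and at 63.3, 64.9, 66.4 and 60.7 in 3D and overlapped between the groups. The log2 fold change of Rab11a was 0.35 and did not pass (limma's adjusted p = 0.0767, range over the alternatives 0.00319 to 0.724), was -0.057 on the values as deposited, and passed without the 2D library of mouse 4 (0.0196) and, at 0.57, without the 2D libraries of mice 3 and 4 (0.00319). Rab11b was slightly lower in 3D, with a change of -0.32 ± 0.08 (limma, adjusted p = 0.0140), a call lost in the fit on only mice 4 and 5 (0.203) and without the 2D libraries of mice 3 and 4 (0.0533, range over the alternatives 0.00580 to 0.247).

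Myosin V changed its leading gene. Myo5b held 0.227%, 1.06%, 1.51% and 0.202% of the class in 2D and 68.4%, 76.0%, 63.3% and 71.1% in 3D. Myo5a, the form best known from melanocytes and neurons, was at 25.1, 25.3, 23.9 and 35.6 FPKM in 2D and at 1.38, 1.47, 1.56 and 1.58 in 3D. All 3D libraries of Myo5a lay below all 2D libraries, and its estimated change was -3.49 ± 0.15 (limma, adjusted p = 2.16e-06). Myo5c, an epithelial form, was at most 0.0223 FPKM in 2D and 1.86 to 4.94 FPKM in 3D, a change of 2.01 ± 0.25 (limma, adjusted p = 5.45e-04). The summed level of the class was 27.7 ± 5.37 FPKM in 2D and 15.5 ± 2.75 FPKM in 3D (SD, n = 4), so that the family sum was lower in 3D while its epithelial members were higher.

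Rab11fip1 held 7.04%, 10.3%, 10.3% and 4.50% of the class I Rab11 effectors in 2D and 36.6%, 18.8%, 18.1% and 15.8% in 3D. The 3D library of mouse 1 stood apart, and without it the difference between the group means was 9.50 percentage points in place of 14.3. In that library Rab11fip5 was at 21.4 FPKM, below all 2D libraries (22.9 to 27.8), while it was between 49.8 and 61.4 in the other 3D libraries. Rab11fip5 did not pass over all libraries (limma's adjusted p = 0.0713, range over the alternatives 2.75e-04 to 0.218) and passed without the 3D library of mouse 1, with a log2 fold change of 1.19 in place of 0.83, and in the fit on only mice 4 and 5. Rab11fip2 was at 8.46 ± 2.55 FPKM in 2D and 8.25 ± 1.56 FPKM in 3D (SD, n = 4), a difference near 0 whose sign changed on the values as deposited. By level, Rab11fip1 was below Rab11fip2 in each 2D library and above it in each 3D library.

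The other families did not pass. Rab27b held between 32.9% and 75.4% of the Rab27 pair in 2D and between 25.4% and 56.7% in 3D (exact p = 0.200). Sytl1 and Sytl2 together held 40.9%, 83.6%, 72.1% and 27.7% of the synaptotagmin-like family in 2D and between 76.1% and 87.6% in 3D (exact p = 0.114, adjusted p = 0.137 over the 6 shares). The difference was 25.4 percentage points over all libraries and 46.8 without the 2D libraries of mice 3 and 4. The remaining FPKM of the family in 2D was mostly Sytl5, at 9.0, 2.64, 6.34 and 14.5 FPKM, which was between 0.00508 and 1.54 in 3D, a change of -2.34 ± 0.47 (limma, adjusted p = 0.00563). Sytl3 was at most 0.0702 FPKM in 2D and 1.1 to 1.44 FPKM in 3D, a change of 1.14 ± 0.06 (limma, adjusted p = 8.88e-06), and Sytl4 overlapped between the groups (adjusted p = 0.738) with a sign that changed on the values as deposited.

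**Figure D4:**
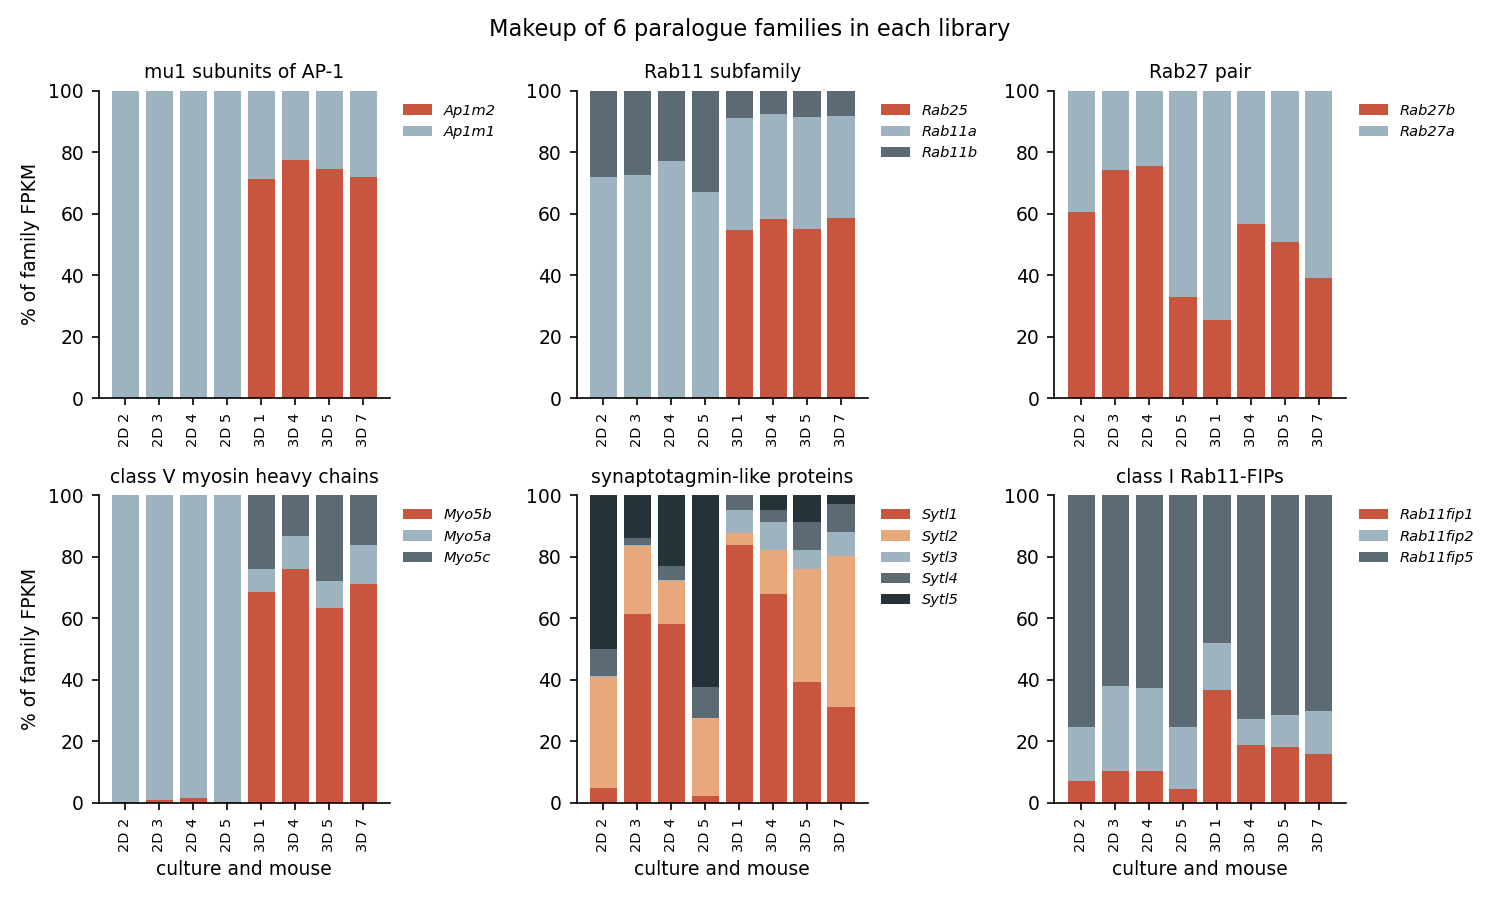
Share of each family's summed FPKM held by each gene, in percent, with 1 bar per library named by culture and mouse. In the 3D bars Ap1m2 holds at least 71.2% of the mu1 pair, Rab25 at least 54.8% of the Rab11 subfamily and Myo5b at least 63.3% of the class V myosins, and in the 2D bars they hold at most 1.51%.

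A wider list of 65 genes of the same transport steps was sorted by role. Vamp7 was listed at 0 in every library, and of the other 64 genes 25 were higher and 19 lower in 3D by limma's adjusted p, beside 21.2% and 20.3% of all tested genes, and 20 were not called. The libraries did not overlap in 25 genes in the higher and 18 in the lower direction, beside 21.6% and 20.9% of all genes. The median log2 fold change of the 64 was 0.34, and 0.13 on the values as deposited. There 22 were higher and 21 lower, beside 22.7% and 21.6% of all genes. Of the 44 called genes, 4 changed sign there, namely Rab14, Clta, Cltc and Vamp8. The fit blocked on mouse called 0 of the 64 by limma's adjusted p and gave 30 of them an unadjusted p below 0.05, beside 27.7% of all tested genes. Without the 2D libraries of mice 3 and 4, 30 were higher and 16 lower, beside 19.3% and 22.8% of all genes tested in that fit.

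Among 10 further Rab GTPases and activators of recycling and apical transport, Rab20, Rab3d and Rab14 were higher and Rab8b, Rab13, Rab8a and Rab11b lower, with a median log2 fold change of 0.23, which was -0.19 on the values as deposited. The call of Rab14 depended on the normalization, since its change was 0.35 with quantile normalization (limma, adjusted p = 0.0103) and -0.042 on the values as deposited (adjusted p = 0.648, range over the alternatives 0.00909 to 0.648). Rab20 was at 4.45, 4.29, 6.27 and 3.33 FPKM in 2D and at 49.1, 21.9, 29.9 and 35.2 in 3D, a change of 2.62 ± 0.26 (limma, adjusted p = 1.69e-04). Rab3d, of secretory granules, had a change of 0.95 ± 0.26 (limma, adjusted p = 0.0219), and its call was lost in the fit on only mice 4 and 5 (0.104), without the 2D library of mouse 2 (0.0577), the 2D library of mouse 5 (0.0574) or the 3D library of mouse 4 (0.0583, range over the alternatives 0.0123 to 0.139). Rab8b and Rab13, which act in transport to the cell surface and to junctions, had log2 fold changes of -1.46 and -0.89. That of Rab13 was -0.64 without the 2D libraries of mice 3 and 4, with a limma adjusted p of 0.0600 (range over the alternatives 0.00505 to 0.222), and its call was lost in the fit on only mice 4 and 5 as well.

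Of 15 other Rab effectors and motors, 7 were higher and 2 lower, beside 21.2% and 20.3% of all tested genes. Their median log2 fold change was 0.54. Mlph, which links Rab27a to myosin V, was between 0.0635 and 0.148 FPKM in 2D and at 27.8, 25.9, 15.4 and 17.2 in 3D, a change of 4.31 ± 0.21 (limma, adjusted p = 5.08e-06). Myo6, the motor that moves toward the minus ends of actin, was at 2.79, 4.04, 4.93 and 3.01 FPKM in 2D and at 46.8, 38.7, 57.7 and 50.8 in 3D, a change of 3.41 ± 0.18 (limma, adjusted p = 7.61e-06). For Mlph and Myo6 alike, the lowest 3D library was far above the highest 2D library. The 2 genes called lower were Myo5a and Sytl5, described above.

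In the AP-1 complex and clathrin, 5 of 9 genes were higher and 3 lower, beside 21.2% and 20.3% of all tested genes. On the values as deposited 2 were higher and 4 lower, beside 22.7% and 21.6% of all genes. The median log2 fold change was 0.32 and changed sign on the deposited values, at -0.12. Clta and Cltc were called higher with quantile normalization and were at -0.12 and -0.27 on the values as deposited, where Cltc was called lower (limma's adjusted p = 0.0391, range over the alternatives 0.0217 to 0.369). The sigma1 subunits moved apart. Ap1s3 was at 2.35, 3.69, 3.00 and 2.81 FPKM in 2D and at 28.1, 34.0, 58.1 and 69.0 in 3D, while Ap1s2 was at 13.1, 15.9, 14.8 and 18.6 in 2D and at 1.48, 2.46, 2.79 and 2.28 in 3D. Their log2 fold changes were 3.53 (standard error 0.29) and -2.36 (standard error 0.17), with limma's adjusted p-values of 6.67e-05 and 4.16e-05. Ap1s1 had the highest level of the 3 sigma1 genes by group mean in 2D and in 3D, 87.7 ± 7.64 and 61.4 ± 7.11 FPKM (SD, n = 4), and was lower in 3D (limma's adjusted p = 0.00517). Ap1g2, a gamma subunit, had a log2 fold change of 0.92, and the clathrin light chain gene Cltb was lower (limma's adjusted p = 0.0125).

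The exocyst, which tethers carriers at the membrane, had 2 of 9 genes higher and 3 lower, beside 21.2% and 20.3% of all tested genes. Its log2 fold changes were between -0.90 and 0.89. Exoc7 (0.74, limma's adjusted p = 0.00104) and Exoc6 (0.89, adjusted p = 0.0435) were higher, and Exoc5 (-0.90), Exoc8 (-0.66) and Exoc2 were lower. The adjusted p of Exoc6 from limma ranged from 8.78e-04 to 0.421 over the alternatives, and the call was lost without a filter on low values, in the fit on only mice 4 and 5, without the 2D library of mouse 2 or 5 and without any 1 of the 3D libraries. Of 9 tested fusion genes, 4 were higher and 4 lower, beside 21.2% and 20.3% of all tested genes. Vamp8, called higher at 0.33, was at -0.24 on the values as deposited (limma's adjusted p = 0.0580, range over the alternatives 0.0155 to 0.414). Stxbp2 encodes a Munc18 protein of epithelial secretion. Stxbp2 was at 5.15, 27.2, 31.6 and 2.26 FPKM in 2D, with mice 3 and 4 again high, and at 50.1, 54.0, 59.1 and 54.4 in 3D. Its estimated change was 2.25 ± 0.73 (limma, adjusted p = 0.0399), and 3.56 without the 2D libraries of mice 3 and 4 (adjusted p = 2.84e-04, range over the alternatives 2.84e-04 to 0.342). As for Sytl1, the libraries left out were the highest of the 2D group, so the larger change follows from that choice. The call of Stxbp2 was lost on the values as deposited, without a filter on low values, in the fit on only mice 4 and 5, without the 2D library of mouse 2 or 5 and without any 1 of the 3D libraries. Stxbp3 (0.84) was higher and Stx2 (-0.93) lower.

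Of 7 genes of apical raft sorting, Mal2, Mal and Lgals4 were higher and Anxa2 was lower, with a median log2 fold change of 1.46, which was the same with Mal at its lower bound. Mal, a raft protein of direct apical transport, was at 46.0, 76.1, 76.4 and 107 FPKM in 3D. Its 2D values were all listed at 0, and with 3 fragments allowed per 2D library the 3D level was at least 86.5-fold higher. Mal2, of the transcytotic route, was at 0.0378, 2.56, 2.53 and 0 FPKM in 2D and at 219.7, 174, 252 and 268 in 3D, a change of 6.90 ± 0.48 (limma, adjusted p = 3.02e-05). Mice 3 and 4 were the higher pair of the 2D libraries for Mal2, far below the 3D libraries. Anxa2 was at 989 ± 101 FPKM in 2D and 267 ± 78.1 FPKM in 3D (SD, n = 4), a change of -1.93 ± 0.21 (limma, adjusted p = 2.85e-04).

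Of 5 genes of sorted cargo, 1 was higher and 2 were lower by limma's adjusted p, beside 21.2% and 20.3% of all tested genes. Among the called genes were Pigr and Fcgrt. Pigr, the receptor that carries polymeric immunoglobulin to the apical side, was at 0, 0.0492, 0.00364 and 0.0531 FPKM in 2D and at 557, 111, 258 and 42.6 in 3D. The 3D libraries differed widely among themselves, and the lowest, mouse 7, was still far above 2D. Its estimated change was 7.31 ± 0.70 (limma, adjusted p = 1.49e-04). About 6 fragments in 2D stood against 26742, 5361, 11045 and 2227 in the 3D libraries of mice 1, 4, 5 and 7, so that the 3D sum rests mostly on mouse 1. Fcgrt, the neonatal Fc receptor that carries IgG across epithelia, fell from 25.9 ± 3.89 to 1.47 ± 0.650 FPKM (SD, n = 4), a change of -3.48 ± 0.23 (limma, adjusted p = 2.42e-05).

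**Figure D5:**
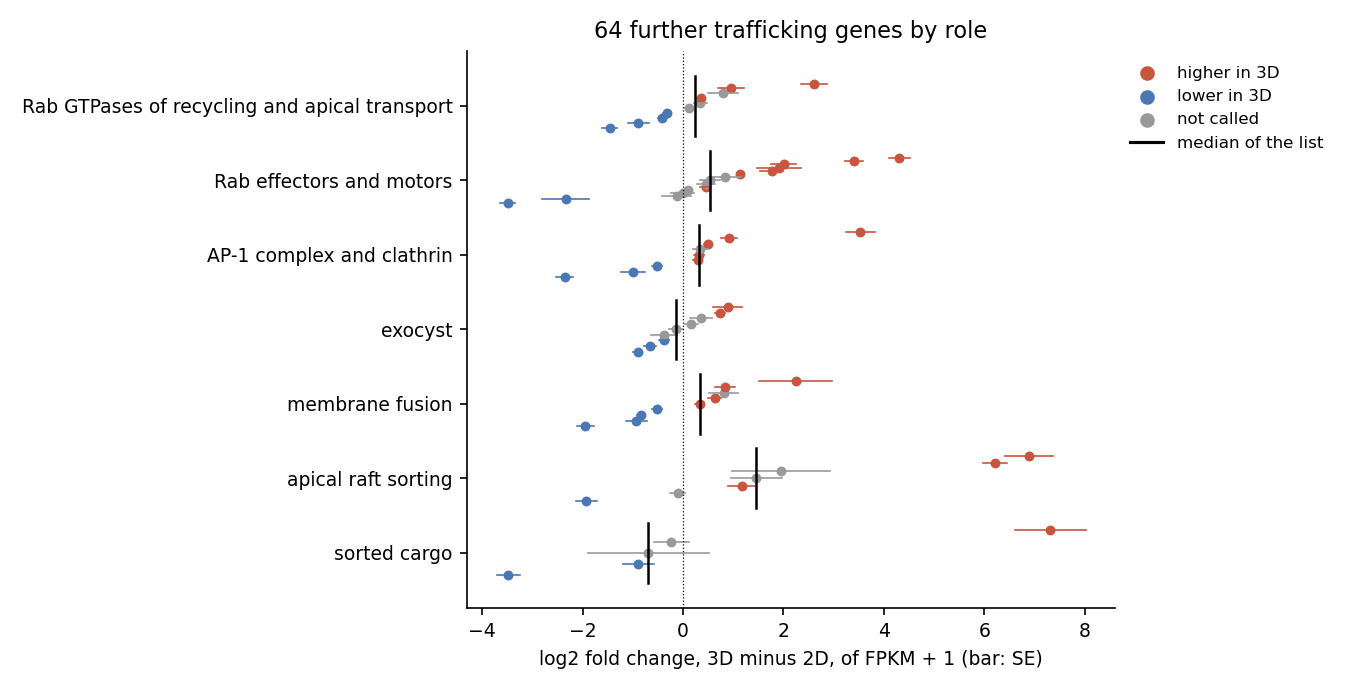
Log2 fold change (3D minus 2D, of FPKM + 1) of 64 further trafficking genes in 7 role lists, each point a gene with its standard error, red where called higher, blue where called lower and grey where not called, with the median of each list as a black line. The list medians lie between -0.69 for sorted cargo and 1.46 for raft sorting, and the other lists between -0.13 and 0.54. The medians of the Rab, AP-1 and clathrin, and fusion lists are above 0 here and were below 0 on the values as deposited.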

How the data were processed

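Paired-end reads of 8 directional, ribosomal RNA-depleted libraries were trimmed, mapped with TopHat (mm10, per the submitters' processing notes) and summarized per gene as FPKM with Cufflinks by the authors, who deposited these FPKM values before quantile normalization. The annotation is not given in the sources used here. Genes above 0 in at least 1 library (18862 of 24346) were quantile normalized, converted to log2(FPKM + 1) and fitted with limma 3.58.1 (R 4.3.3, lmFit and eBayes with an intensity trend, no covariates, two-sided), with Benjamini-Hochberg adjustment over all tested genes. The code of the fit was tested on simulated data.

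Shares of 6 paralogue families were compared by exact permutation over libraries. The members and lists were chosen with earlier results of these data known. Named genes are the 10 members, their paralogues, in each wider list up to 2 called genes with the largest change in each direction, exceptions that complete a count of 5 or fewer, and in each marker list its most abundant gene and those at 0. Epcam, Thy1, Grhl2, Zeb1, Zeb2, Ptprc, Ap1s1, Rab10, Cd44, Csf1r, Nt5e, Tyr, Ros1, Crisp1 and Rnase10 were added after their values were seen. Stx4 was matched through its synonym Stx4a, and Muc16 is not in the list of genes.

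Low FPKM values move in steps of 1 fragment, and the depth is the number that makes these steps whole over 875 long genes (GENCODE M21, 1 transcript, 3000 nt or more). Between 63.2% and 82.4% of low values per library lay within 0.1 fragments of a whole number. Fragments per gene used the shortest RefSeq transcript less 250 nt, so that counts, floors of 3 fragments and intervals are estimates and cover counting error only. The part of the summed FPKM in genes under 300 nt was 19.5% to 63.2%. Mouse numbers pair mice 4 and 5, since they mark the same animal. Over 12583 genes, the deviations of an animal's libraries from their group means had r = -0.05 (mouse 4) and r = -0.11 (mouse 5). Promoter windows and motifs were read with Python 3.11.15. Alternatives were the deposited values, no intensity trend, filters on low values (mean of at least 1 FPKM, none), a pseudocount of 0.1, genes under 300 nt left out, leaving out each library, only mice 4 and 5, and mouse as a random effect or block. Leaving out the 2D libraries of mice 3 and 4, and the list medians and all wider genes on the deposited values, were chosen after seeing the data.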

Additional observations from a re-analysis of the deposited data

Results flagged for a closer look

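In a group of 4 libraries, a value was looked at again where its gap to the nearest other library as a fraction of the group's range exceeded Dixon's 95% critical value. Of 50 groups tested this way among the members, their paralogues and the shares in each culture type, 6 met this criterion, and of 47 groups among the other genes chosen from the wider lists, 0 did. Chance gives about 1 in 20 for values with a normal spread. That rate does not hold where all libraries but 1 are at 0, since any value above 0 then meets the criterion. The mu1 share of Ap1m2 also repeats the values of that gene, so the count of 6 cannot be set against this rate.

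For Rab17 in 2D, mouse 4 was at 0.0658 FPKM and the others at 0. For Ap1m2 in 2D, mouse 3 was at 0.0405 FPKM and the others at 0, and its share of the mu1 pair was 0.197% there and 0% in the others. These values rest on about 2 and 1 fragments. Among the 3D values of Rab11fip1, mouse 7 was at 11.2 FPKM and the others at 15.5 to 16.3. Among the 2D values of Myo5a, mouse 5 was at 35.6 FPKM and the others at 23.9 to 25.3. The share of Rab11fip1 among class I Rab11 effectors was 36.6% for mouse 1 in 3D, against 15.8% to 18.8% for the other 3D libraries.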

How the results depend on the processing

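The count of members called higher was 4 or 5 in every alternative other than the block, and 0 were called lower in any. With the mouse as a replicate block, which rests on 1 residual degree of freedom, limma's adjusted p passed for 0 members, and for 0 genes higher and 0 lower in the wider list. Over all tested genes it called 0, beside 5216 with an unadjusted p below 0.05. When the fit was restricted to mice 4 and 5, and so to fewer libraries, 12 wider genes were higher and 8 lower. Over all genes 1788 (9.89%) were higher and 1432 (7.92%) lower, in place of 4000 and 3823. The calls lost in that fit included those of Myo5c, Sytl5, Rab11b, Rab3d, Rab13, Cltb, Exoc6, Exoc7, Exoc8, Stxbp2, Stxbp3 and Stx2.

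The difference in the share of Rab25 was 54.3 percentage points on the values as deposited in place of 56.4. The difference in the share of Sytl1 and Sytl2 ranged widely, from 15.6 to 46.8 percentage points, and that of Rab11fip1 from 9.50 to 16.7. Leaving out a library in turn makes a group of 3, for which the smallest exact p is 0.0571, so that the test of the shares could not pass there.

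On the values as deposited, the log2 fold change changed sign for Rab27a (0.24), Rab11a (-0.057), Sytl4 (0.13) and Rab11fip2 (0.14), and for Rab27a also with a pseudocount of 0.1 (0.026). None of these 4 genes passed the threshold over all libraries or on the deposited values. In the wider list, Rab14, Clta, Cltc and Vamp8 were called higher and changed sign on the deposited values, and Rab10 (0.11) was called lower there (-0.32). With each library left out in turn, the log2 fold change of Rab27a ranged from -0.15 to 0.25, the log2 fold change of Sytl4 from -0.36 to 0.051 and the log2 fold change of Rab11fip2 from -0.17 to 0.12. Without the 2D libraries of mice 3 and 4 it was 0.32 for Rab11fip2. The cause was not tested. A pseudocount of 0.1 put the log2 fold change of Rab25 at 9.09, the log2 fold change of Ap1m2 at 9.01 and the log2 fold change of Myo5b at 5.36, which depend on that choice since their 2D levels are near 0. Depth limits the statements on Rab17, with about 2 fragments in 2D and between 2 and 27 in each 3D library.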
